A study of Mus musculus with 4 samples.

Results

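A set of 8 genes known as markers of the choroid plexus were followed in olfactory bulb RNA of *Unc80* knock-in mice: *Ttr*, *Htr2c*, *Tmem72*, *Clic6*, *Kl*, *Lbp*, *Aqp1* and *Enpp2*. They are 8 of the 15818 genes in the deposited table, and all 8 were found there by symbol. They were chosen by name, with the genotype means of these same libraries already known, so the genotype differences of the 8 genes are given as descriptions and carry no test. *Unc80* encodes a large subunit of the sodium leak channel complex of neurons, and its transcript is recoded by A-to-I editing from a serine to a glycine codon. In *Unc80* S/S mice (labelled unedited) a codon-neutral change keeps the serine and removes editing. In *Unc80* G/G mice (labelled edited) the glycine codon is written into the genome. Both alleles were made with CRISPR/Cas9 in embryos of B6D2F1 donors, every cell of a mouse carries them, and no wild-type library was analysed here. The mice were adult males, and each of the 4 libraries (2 per genotype) was made from a pool of several mice, so the spread between 2 libraries is a spread between pools.

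The choroid plexus is a secretory epithelium inside the brain ventricles that makes cerebrospinal fluid. Its cells carry pumps, ion exchangers and water channels, and they release carrier proteins, of which transthyretin is the best known. The olfactory bulb holds no choroid plexus of its own. Some of the 8 genes also have other sources. *Aqp1*, a water channel, is made by olfactory ensheathing cells and some vascular cells. *Enpp2*, the lysophospholipase autotaxin, is made by oligodendrocytes and meningeal cells.

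Libraries held between 35465913 and 38051810 sequenced reads, of which 24738078 to 26479648 were counted on genes. The authors' values are genotype means in CPM (reads of a gene scaled to a common total of counted reads), 1 per gene and genotype. No gene of the table had a mean under 1 CPM over both genotypes (lowest 1.01 CPM). For 2217 of the 15818 genes (14.02%), including *Ttr*, *Clic6* and *Aqp1*, both means were resolved into a whole number of reads for every library. Which labelled sample each one is cannot be told, so within a genotype they are called the library with more, or with fewer, counted reads. For the other 5 genes only the genotype means are known. All 13 neuron markers fixed for the bulb were listed, at 24.8 to 1612 CPM over both genotypes, among them *Gad1*, *Meis2*, *Cdhr1* and *Gad2*.

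By their genotype means alone, the 8 genes fell into 3 groups. *Ttr*, *Htr2c*, *Tmem72* and *Clic6* had higher means in G/G bulbs, *Enpp2* had nearly equal means, and *Kl*, *Lbp* and *Aqp1* had lower means in G/G bulbs. Over the table, 47.2% of the genes had a higher mean in G/G, beside 5 of the 8 (*Enpp2* among them, by a ratio of 1.00). Of the 8, 3 were more than 1.5-fold higher in G/G, against 0.329% of all genes and 1.45% of the 3310 genes with a mean under 5 CPM. The choice of the genes used these means, so nothing is read from that count. None of the 8 was more than 1.5-fold lower in G/G. In bulk RNA, fewer cells of a type and less RNA per cell cannot be told apart.

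**Figure D1:**
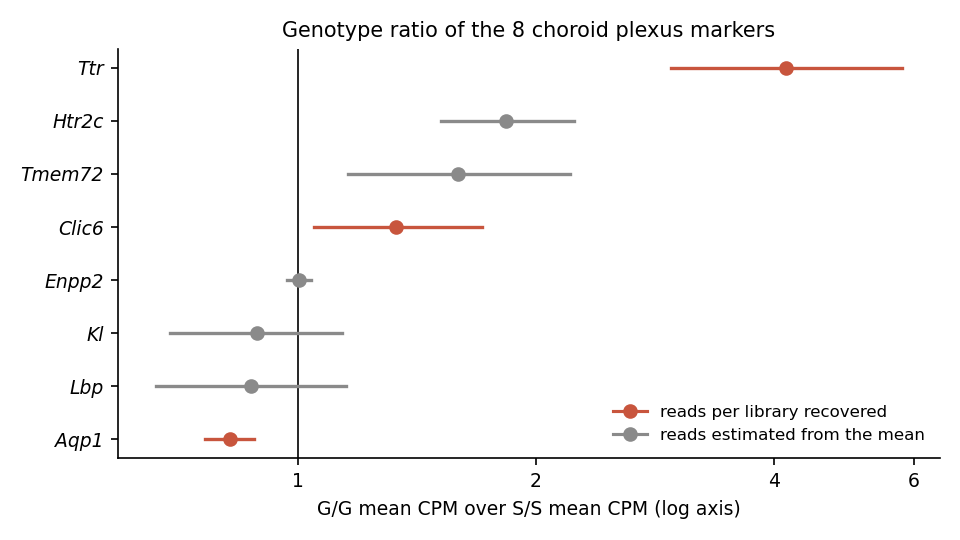
Ratio of the authors' genotype means (G/G over S/S, log axis) for each of the 8 genes, with a 95% interval for counting error only; red marks genes whose reads per library were recovered and gray those whose reads were estimated from the mean. The ratio runs from 4.14 for *Ttr* down to 0.821 for *Aqp1*, and the intervals of *Enpp2*, *Kl* and *Lbp* span 1.

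*Ttr* encodes transthyretin, which carries thyroxine and retinol-binding protein and is among the most abundant transcripts of choroid plexus epithelium. In the bulb libraries it was rare. It had 34 and 12 reads in the S/S libraries and 117 and 66 reads in the G/G libraries, naming first the library of the genotype with more counted reads, as is done throughout. These are 1.28 and 0.475 CPM in S/S and 4.62 and 2.67 CPM in G/G, or means of 0.880 ± 0.572 and 3.64 ± 1.38 CPM (SD, n = 2 libraries each). Both G/G libraries lay above both S/S libraries, and the lower G/G library was 2.08-fold above the higher S/S library. A G/G over S/S order without overlap was seen in 17.7% of the genes with recovered reads. The ratio of the authors' means was 4.14, with a 95% interval of 2.96 to 5.81 from the 46 and 183 reads behind them. It was the largest G/G over S/S ratio of all 15818 genes. The choice of the genes used these means, so this rank and those given below are descriptions only. Large ratios were mostly those of rare genes, as 48 of the 52 genes more than 1.5-fold higher in G/G had a mean under 5 CPM. The interval comes from an exact binomial (Clopper-Pearson) interval of the share of reads and covers counting error only.

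*Ttr* also differed between libraries of the same genotype. The S/S libraries were 2.70-fold apart and the G/G libraries 1.73-fold apart. Among the 1036 genes with recovered reads and a mean under 5 CPM, the median fold between the libraries of a genotype was 1.16 in S/S and 1.17 in G/G. Only 2 of these genes (0.193%, *Ttr* included) differed as much as *Ttr* between the S/S libraries, and 33 (3.19%) did so between the G/G libraries. The fitted log2 fold change of *Ttr* was 2.03 with all 4 libraries and lay between 1.503 and 2.93 when each library was left out in turn. Leaving out the first S/S library gave the highest of these values and leaving out the second S/S library the lowest.

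**Figure D2:**
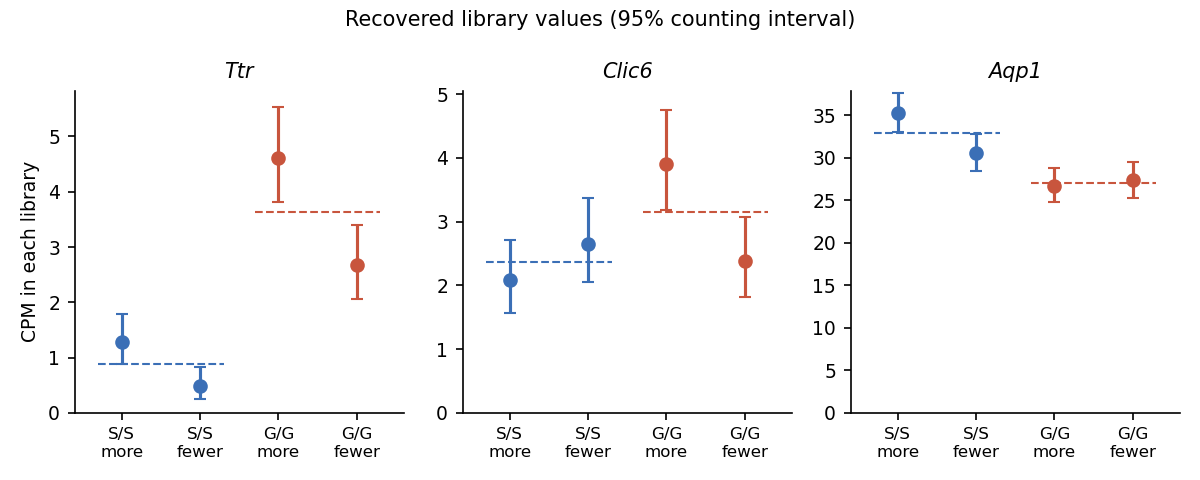
CPM of *Ttr*, *Clic6* and *Aqp1* in each library (blue S/S, red G/G; "more" and "fewer" name the library of the genotype by its counted reads), with 95% exact Poisson counting intervals and the genotype mean as a dashed line. *Ttr* separates the genotypes upward and *Aqp1* downward, while the *Clic6* values of 2.38 and 3.91 CPM in G/G enclose 1 S/S library.

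*Htr2c* encodes the serotonin 2C receptor, a Gq-coupled receptor that is dense on choroid plexus epithelium and also found on neurons, and whose transcript is itself a well-known target of ADAR editing. Its authors' means were 3.28 CPM in S/S and 6.00 CPM in G/G bulbs. The ratio was 1.83 (95% counting interval 1.52 to 2.23, from an estimated 169 and 301 reads), which ranked 7 of 15818. No value per library is known, so the spread between pools cannot be given for it. *Tmem72*, a membrane protein of little known function, had 1.27 CPM in S/S and 2.03 CPM in G/G bulbs. Its ratio was 1.596 (1.16 to 2.21, from an estimated 66 and 102 reads). It ranked 29 of 15818, and 26 of the 3310 genes with a mean under 5 CPM. On the log2(CPM + 1) scale, which shrinks differences between low values, the difference of *Tmem72* was 0.42 and no longer past 1.5-fold, while that of *Htr2c* was 0.71 and that of *Ttr* 1.304.

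*Clic6*, of the chloride intracellular channel family, had 55 and 67 reads in the S/S libraries and 99 and 59 reads in the G/G libraries. The values were 2.08 and 2.65 CPM in S/S and 3.91 and 2.38 CPM in G/G, or means of 2.37 ± 0.408 and 3.15 ± 1.08 CPM (SD, n = 2 each). The genotypes overlapped, and the higher mean of G/G rested on 1 library. The ratio of means was 1.33 (95% counting interval 1.05 to 1.71). Without the G/G library with more counted reads, the fitted log2 fold change fell from 0.42 to 0.01. The G/G libraries were 1.64-fold apart, which 4.92% of the low genes reached. The library with the most *Ttr* reads was also the one with the most *Clic6* reads, yet the 2 genes did not keep a fixed proportion. There were 0.618 and 0.179 *Ttr* reads per *Clic6* read in the S/S libraries and 1.18 and 1.12 in the G/G libraries.

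By CPM, not corrected for gene length, *Kl* and *Lbp* were as low as *Clic6*, and they had slightly lower means in G/G bulbs. *Kl* encodes klotho, the co-receptor that lets FGF receptors bind FGF23, and had 2.74 CPM in S/S and 2.43 CPM in G/G (ratio 0.888, 95% counting interval 0.691 to 1.14). *Lbp* encodes the lipopolysaccharide-binding protein, which hands bacterial lipopolysaccharide to CD14, and had 2.26 and 1.98 CPM (ratio 0.874, 0.662 to 1.15). Both intervals include a ratio of 1. They rest on an estimated 99 to 142 reads per genotype, and differences within these intervals cannot be told from counting error.

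*Aqp1* and *Enpp2*, which glia of the bulb also make, were the most abundant of the 8, and their ratios were 0.821 and 1.00. *Aqp1* had 934 and 770 reads in the S/S libraries and 677 and 676 reads in the G/G libraries. These are 35.3 and 30.5 CPM in S/S and 26.7 and 27.3 CPM in G/G, or means of 32.9 ± 3.37 and 27.0 ± 0.435 CPM (SD, n = 2 each). Both G/G libraries lay below both S/S libraries, an order seen in 14.8% of the genes with recovered reads. The S/S mean was 1.22-fold higher (95% counting interval 1.13 to 1.31), and the lower S/S library stood 1.12-fold above the higher G/G library. The fitted log2 fold change was -0.28 with all libraries and -0.38 to -0.18 when each was left out. *Enpp2*, which makes lysophosphatidic acid, had 127.7 CPM in S/S and 128.3 CPM in G/G, a ratio of 1.00 (0.971 to 1.04). By annotation, 5.97% of its exon bases lie opposite exons of Gm26684 on the other strand. The other 7 genes share no exon base with another gene on either strand.

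Over the 2217 genes with recovered reads, edgeR's quasi-likelihood test called 2 (0.0902%) at an adjusted p under 0.05. *Ttr*, *Clic6* and *Aqp1* were among the genes fitted. Their choice used the same contrast, so no call is given for them.

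The level of a transcript can be compared between genes only per length. Per kb of annotated exon (union over transcripts), the authors' means came to 22.1 and 22.2 CPM per kb for *Enpp2* (S/S first) and 12.5 and 10.3 for *Aqp1*. *Ttr* followed at 0.742 and 3.07 CPM per kb. *Clic6* stood at 0.604 and 0.804, *Lbp* at 0.468 and 0.409, *Htr2c* at 0.351 and 0.644 and *Kl* at 0.294 and 0.261 CPM per kb. *Tmem72* was lowest at 0.0742 and 0.118 CPM per kb, on an annotated exon length of 17177 bases. *Ttr* thus stood next after *Aqp1* per length in both genotypes, but in S/S the values of *Clic6* and *Lbp* lay within the spread of its own 2 libraries. For the genes without library values, neighbors in this order have no spread against which to compare them. The length counts every annotated exon, and which transcripts the bulb uses is not known from these values.

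**Figure D3:**
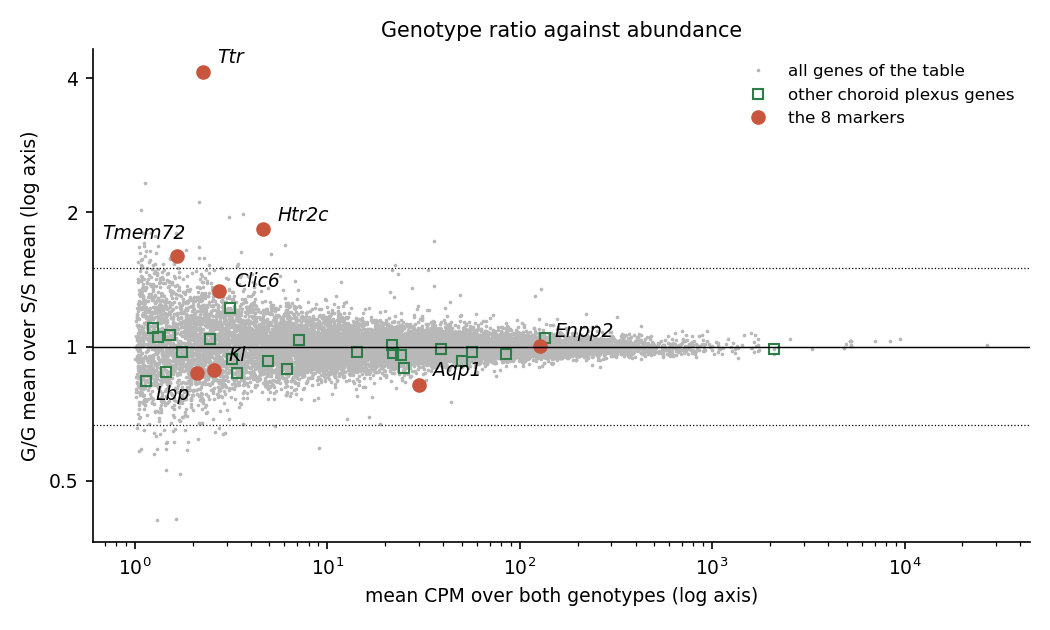
Ratio of the authors' genotype means (G/G over S/S) against the mean CPM over both genotypes, both on log axes, for all 15818 genes (gray), the 24 other listed choroid plexus genes (green squares) and the 8 markers (red); dotted lines mark 1.5-fold. *Ttr*, *Htr2c* and *Tmem72* lie above the upper dotted line and none of the green squares does.

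Other genes known for choroid plexus epithelium had ratios near 1 where they were in the table. Of 40 further symbols listed for this epithelium, 24 were in the table, 8 with a higher and 16 with a lower mean in G/G bulbs and none past 1.5-fold either way. Their ratios ran from 0.835 to 1.22, and the median log2 ratio was -0.04, beside -0.01 over all genes of the table and 0.21 over the 8 markers. Several that define the epithelium, namely *Folr1*, *Kcne2*, *Sostdc1*, *Prlr*, *Slc4a5*, *Cldn2*, *Calml4* and *Steap1*, were not listed. Others not listed were *Krt8*, *Krt18*, *Wfdc2*, *Wdr86*, *Prr32*, *Mfrp* and *Lmx1a*, and 1500015O10Rik, an older symbol of *Ecrg4*. Apart from *Ecrg4*, the genes not listed have no ratio here. The table holds no gene with a mean under 1 CPM over both genotypes, and whether these fell under such a limit is not known. *Ttr* itself had 0.880 CPM in S/S. Some of the 24, such as *Atp1b1* (2111 CPM in S/S) and *Slc12a2* (133 CPM in S/S), were far more abundant than *Ttr*.

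Among the rare genes of that list with recovered reads, libraries of the same genotype differed for some, as for *Otx2* at 0.982 and 1.51 CPM in S/S and *Msx1* at 1.10 and 1.62 CPM in G/G. *Kcnj13*, the inward rectifier channel Kir7.1 of the apical membrane, had 44 and 33 reads in the S/S libraries and 43 and 36 in the G/G libraries. *Otx2*, a homeodomain factor required for choroid plexus development, had 26 and 38 reads in S/S and 25 and 27 in G/G, and *Ecrg4*, a secreted peptide precursor, 32 and 29 against 30 and 35. *Msx1*, another homeodomain factor, had 38 and 29 reads against 28 and 40, and *F5*, coagulation factor V, had 45 and 47 against 46 and 41. The genotypes overlapped in every one of these 5 genes. *Ttr* reads per *Kcnj13* read were 0.773 and 0.364 in the S/S libraries and 2.72 and 1.83 in the G/G libraries, and per *Otx2* read 1.31 and 0.316 against 4.68 and 2.44. The proportion of *Ttr* to both genes was thus higher in both G/G libraries than in either S/S library, which repeats the order of *Ttr* itself. The choice of *Ttr* used that contrast, so nothing more is read from these proportions. They rest on as few as 12 *Ttr* reads in a library and carry no counting interval.

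The remaining 4 recovered genes of the list were *Col8a1*, *Col8a2*, *Perp* and *Slc12a2*. The collagen gene *Col8a1* had 72 and 74 reads in S/S and 104 and 69 in G/G, with the higher G/G value in the same library as that of *Clic6*. *Col8a2* (87 and 84 against 95 and 61 reads) and *Perp*, a junction protein (176 and 185 against 211 and 152 reads), were likewise higher in that library. *Slc12a2*, the sodium-potassium-chloride cotransporter, had 3434 and 3425 reads against 3407 and 3548. Over the 9 recovered genes, edgeR called none (0 with an unadjusted p under 0.05, lowest adjusted p = 0.985). With DESeq2 the count was also 0. Over all recovered genes, *Ttr*, *Clic6* and *Aqp1* included, edgeR called 0.0902%. Genotypes without overlap were found in 0 of the 9, beside 17.7% of all recovered genes with G/G above and 14.8% with G/G below.

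The other 15 listed genes, known only as genotype means, include several that meninges, glia or neurons also make. *Cldn1*, a tight junction protein, had a ratio of 1.04, and the ion channel gene *Trpv4* 0.879. The solute carrier genes *Slc4a2*, *Slc13a4* and *Slc29a4* had ratios of 1.01, 0.896 and 0.974. For the carbonic anhydrases *Car12* and *Car14* they were 0.966 and 0.889, and for the sodium pump subunit *Atp1b1*, the most abundant of the list, 0.987. *Igf2* and its binding protein *Igfbp2* had ratios of 0.963 and 0.973. The ratios of *Cab39l*, *Vat1l*, *Cgnl1* and *Abca4* were 0.959, 0.990, 0.927 and 0.927, and that of the retinol dehydrogenase gene *Rdh5* was 0.874.

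**Figure D4:**
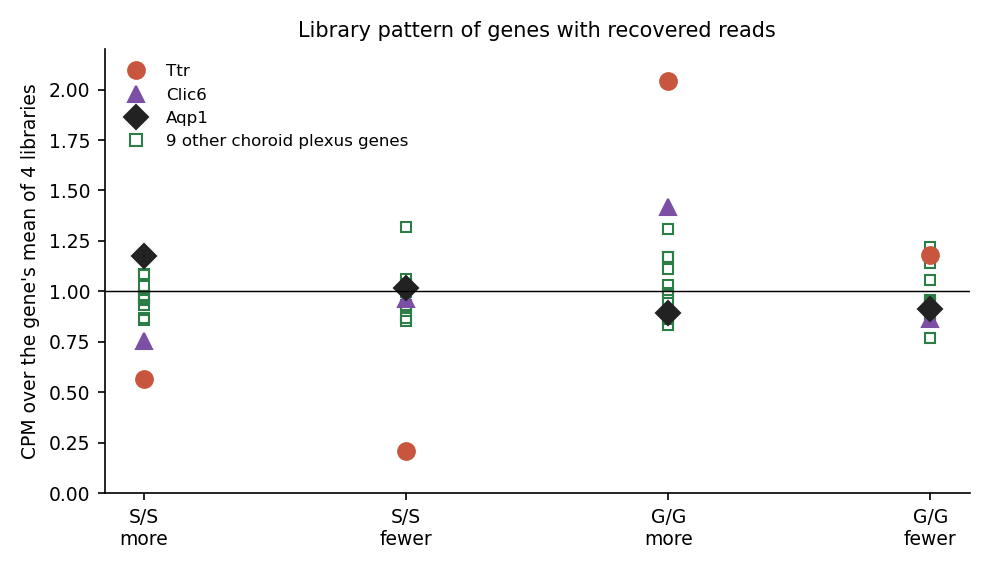
CPM in each library divided by the gene's mean over the 4 libraries, for *Ttr*, *Clic6*, *Aqp1* and the 9 other choroid plexus genes with recovered reads (green squares). *Ttr* spreads widest, from 1 S/S library at 0.475 CPM to 1 G/G library at 4.62 CPM (values before division). The green squares spread less around 1.

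Levels of markers of other bulb cell types were mostly close in the 2 genotypes. Of 14 meningeal fibroblast genes, 12 had lower means in G/G (median log2 ratio -0.09), and their summed authors' means were 1192 CPM in S/S and 1147 CPM in G/G. The 4 most abundant were *Ptgds*, *Fn1*, *Igfbp2* and *Bgn*, at ratios of 0.965, 0.987, 0.973 and 0.950. Ratios of the 14 ran from 0.688 for *Lum* to 1.13. Of 12 ensheathing cell genes, 6 were higher and 6 lower, with *Fabp7*, *S100b* and *Frzb* at ratios of 1.01, 1.02 and 0.973. Of 14 oligodendrocyte genes, 4 were higher and 10 lower, with *Mbp*, *Mobp* and *Cnp* at ratios of 1.02, 1.03 and 0.986. Of 6 listed ependymal genes 3 were higher and 3 lower. That list held *Foxj1* (ratio 1.09), the master factor of motile cilia, *Dnah11* (1.12), *Tm4sf1* (1.05) and the smooth muscle actin gene *Acta2* (0.672). Of 15 ependymal symbols, 9, among them *Ccdc153*, *Tmem212* and *Dynlrb2*, were not listed. Red blood cell genes (6 of 6) summed to 267.0 and 272.6 CPM, endothelial genes (11 of 11) to 264.3 and 265.6 CPM and astrocyte genes (10 of 10) to 3692 and 3773 CPM. Of the 11 endothelial genes, 4 were higher and 7 lower, with *Flt1*, *Slco1a4*, *Abcb1a* and *Cldn5* at ratios of 1.05, 1.01, 1.00 and 1.09 and *Vwf* lowest at 0.767. Of the 10 astrocyte genes 6 were higher and 4 lower, and of the 6 red blood cell genes 3 were higher and 3 lower. The part of these cell types in the values of the 8 genes was not tested.

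Partners of the 8 proteins were read from lists of each pathway. Of 19 genes of thyroid hormone and retinol handling, which *Ttr* serves, 17 were listed, 13 with a higher and 4 with a lower mean in G/G, at ratios of 0.891 to 1.23. *Rbp4*, whose product rides on transthyretin, was not listed. The receptor gene *Thra* had a ratio of 1.02, the hormone-responsive factor *Klf9* 1.08, the activating deiodinase *Dio2* 1.10 and the retinoid receptor gene *Rxrb* 0.998. *Dio2* had 3033 and 2820 reads in S/S and 3432 and 2816 in G/G, so that the genotypes overlapped. Of 13 other serotonin receptors 9 were listed, 5 higher and 4 lower, at ratios of 0.840 to 1.19, against 1.83 for *Htr2c*. *Htr2a*, *Htr5a*, *Htr1f* and *Htr7* had ratios of 0.966, 0.957, 1.19 and 1.03.

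For klotho, the FGF receptors *Fgfr1*, *Fgfr2*, *Fgfr3* and *Fgfrl1* were at ratios of 0.952 to 1.02, and *Klb* and *Fgf23* were not listed. For autotaxin, 13 of 15 genes of lysophosphatidic acid signaling and the ENPP family were listed, 7 higher and 6 lower. Among them *Plppr4*, *Enpp5*, *Plpp3* and *Lpar1*, the main receptor of that lipid in myelinating glia, had ratios of 1.02, 0.968, 0.968 and 0.960. Of 11 genes of lipopolysaccharide sensing and the acute phase, 5 were listed (2 higher, 3 lower), with *Cp*, *Tlr4*, *Ticam1* and *Myd88* at 0.947, 1.14, 0.933 and 0.899 and *Cd14* at 1.17. The other aquaporins and CLIC proteins kept ratios of 0.891 to 1.04 (6 of 14 listed), with the astrocyte water channel *Aqp4* at 1.04, *Clic4* at 0.963, *Clic1* at 1.01 and *Aqp11* at 0.998.

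Over all lists without the 8 genes, 160 of 213 symbols were in the table and none was past 1.5-fold. Reads were recovered for 41 of them, and edgeR called none (lowest adjusted p = 0.818). Of the 41, 5 had an unadjusted p under 0.05, beside 116 of all 2217 genes tested, namely *Npy*, *Lum*, *Ogn*, *Htr1f* and *Dio2*, of which the first 3 had lower means in G/G. DESeq2 also called none, with 1 gene at an unadjusted p under 0.05. Both G/G libraries stood above both S/S libraries in 7 of the 41 and below them in 5, beside the 17.7% and 14.8% of all recovered genes.

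Genes with the library pattern nearest to that of each recovered gene were taken by the root-mean-square distance of centered log2(CPM + 0.5) values over the 4 libraries. No gene came close to *Ttr*. Its nearest were 1700016P03Rik at a distance of 0.578, then Gm45853 (0.586), *Junb* (0.604), *Clec14a* (0.618) and Gm9403 (0.633), where the values of *Ttr* itself spread around their mean by 0.896. 1700016P03Rik had 75 and 52 reads in S/S and 102 and 140 in G/G, so that its highest library was not that of *Ttr*. *Clic6* had near neighbors at distances of 0.0424 to 0.0870, namely Gm47484, Gm42658, Gm38162, *Cfap45* and Gm6658. The nearest to *Aqp1* were Gm2061, *Celrr*, 1700052K11Rik, *Frat2* and Gm16758 at 0.0255 to 0.0341. With 4 libraries such likeness is a description of these libraries only.

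Promoter sequences were at hand for 4 of the 8 genes, *Htr2c*, *Tmem72*, *Kl* and *Aqp1* (RefSeq, GRCm38.p6, 250 bases before to 50 bases after the start site), and not for *Ttr*, *Clic6*, *Lbp* and *Enpp2*. They were searched on both strands for TAATC, the core read by OTX2 and related homeodomain factors, and for the longer TAATCC. They were also searched for TGANTCA, a loose form of the AP-1 motif that allows any middle base and reads the same on both strands. *Htr2c* and *Tmem72* are shown as genes with higher G/G means and *Kl* as one without, with matches in capitals. The windows are chrX:146962263-146962562 (plus strand), chr6:116716709-116717008 (minus strand) and chr5:150952357-150952656 (plus strand).
Htr2c: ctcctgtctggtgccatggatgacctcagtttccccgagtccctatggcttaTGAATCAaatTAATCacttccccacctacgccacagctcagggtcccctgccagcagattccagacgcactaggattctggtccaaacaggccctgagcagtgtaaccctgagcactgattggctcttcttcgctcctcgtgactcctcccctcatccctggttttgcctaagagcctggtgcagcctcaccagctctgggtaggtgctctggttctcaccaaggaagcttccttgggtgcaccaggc
Tmem72: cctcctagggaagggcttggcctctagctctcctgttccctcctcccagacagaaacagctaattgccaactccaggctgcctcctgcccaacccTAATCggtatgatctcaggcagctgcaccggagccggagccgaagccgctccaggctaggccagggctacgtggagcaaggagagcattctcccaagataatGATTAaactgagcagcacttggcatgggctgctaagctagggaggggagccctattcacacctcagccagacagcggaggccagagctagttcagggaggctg
Kl: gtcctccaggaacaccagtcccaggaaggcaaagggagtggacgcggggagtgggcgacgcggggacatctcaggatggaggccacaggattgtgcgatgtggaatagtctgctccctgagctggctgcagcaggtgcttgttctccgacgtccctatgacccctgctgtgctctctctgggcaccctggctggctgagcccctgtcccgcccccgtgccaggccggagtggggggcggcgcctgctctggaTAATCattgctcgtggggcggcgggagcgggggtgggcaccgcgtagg

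Counted from the first base of the RefSeq gene, *Htr2c* held TAATC at -188 and TGANTCA, in the form TGAATCA, at -198, separated by 3 bases. *Tmem72* held TAATC at -155 and, on the other strand, at -53, and *Kl* held it at position 3. The promoter of *Aqp1* held none of the motifs. TAATC was in 22.0% of all 32851 promoters of the same length, and 3 of the 4 promoters at hand held it. TAATCC was in 7.06% of all promoters and in none of the 4, and TGANTCA in 7.81% and in 1 of the 4. The motifs were chosen after the sequences had been seen, and a match is a stretch of letters, not a site. In the GENCODE M21 annotation of GRCm38, *Htr2c* lies on chromosome X from 146962513 to 147197277 and *Tmem72* on chromosome 6 from 116679063 to 116716913, while *Kl* lies on chromosome 5 from 150952607 to 150993817. *Ttr* lies on chromosome 18 from 20665280 to 20674321, *Aqp1* on chromosome 6 from 55336432 to 55348555, *Clic6* on chromosome 16 from 92485736 to 92541243, *Lbp* on chromosome 2 from 158306493 to 158332852 and *Enpp2* on chromosome 15 from 54838901 to 54952892. RefSeq and GENCODE place the starts of *Tmem72* and *Aqp1* differently. By GENCODE, both TAATC matches of *Tmem72* lie within the gene, and the whole *Aqp1* window lies before its gene.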

How the data were processed

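Olfactory bulb RNA was sequenced as 4 libraries, 2 per genotype. Trimming, alignment to GRCm38 (mm10) and the comparison of genotypes were done by the authors in Partek Flow. Not given in the sources used here are the aligner, the gene annotation and how reads were counted, scaled and tested, and the methods name a stranded total RNA kit where the labels name an mRNA kit. The deposited counts of sequenced reads are 1 total per library. The authors' deposited table gives the mean of each genotype in CPM, and its further columns hold the authors' p-values, adjusted p-values, ratios and fold changes, which were not used. Folds given here are quotients of the 2 means.

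For the resolved genes, each mean equals a sum of 2 whole read numbers with 0.0001 CPM added. Each number is weighted by the worth of 1 read in its library. A gene was accepted where a single such pair fitted the mean of each genotype within rounding, and under 1e-04 wrong pairs were expected. The other genes had no single fitting pair in both genotypes or exceeded that limit. The share of genes resolved was 31.3% below 5 CPM and 5.575% from 50 CPM upward, which favors rare transcripts. The recovery and the test were tested on simulated data. Recovered reads were compared with edgeR 4.0.16 (glmQLFTest, library size set to the counted reads, Benjamini-Hochberg over 2217 genes, threshold 0.05), in R 4.3.3. Alternatives used TMM factors, DESeq2 1.42.0, limma 3.58.1, a filter at 5 CPM, a limit of 1e-06, each library left out, and pseudocounts of 0.1 and 1. With 2 pools per genotype, the edgeR p-values set a genotype difference against the spread between pools, which is estimated in part over all fitted genes. Intervals (95%) cover counting error only.

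The 8 genes and all gene lists were chosen with earlier results of these data known. Named were the 8 genes, all listed choroid plexus genes, from each other list the genes past 1.5-fold and up to 4 more of highest mean, and the 5 nearest genes by library pattern. *Cd14*, *Vwf*, *Lum*, *Ogn* and *Npy*, and the motifs, were chosen after values or sequences were seen. Some listed items are not reported here. Exon lengths came from GENCODE M21 and promoters from RefSeq. Tables and figures were made in Python 3.11.15 (pandas 2.3.3, scipy 1.17.1, numpy 2.4.6, matplotlib 3.10.9).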

Additional observations from a re-analysis of the deposited data

How the results depend on the processing

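The fitted log2 fold changes of *Ttr*, *Clic6* and *Aqp1* kept their sign in every alternative fit that gave a value, which for *Ttr* and *Aqp1* is no sign of stability where a library is left out, since their genotypes do not overlap. For the other 5 genes only the pseudocount was varied, which cannot turn a direction. The sizes moved with single libraries, as given for *Ttr*, *Clic6* and *Aqp1*. The count of 2 genes called by edgeR became 6 with TMM factors and 1 with DESeq2. It was 0 among genes of at least 5 CPM (57 with an unadjusted p under 0.05), a filter that leaves out *Ttr* and *Clic6*. It stayed at 2 with limma and with the stricter recovery limit. With 1 library left out it ran from 0 to 2, with 2 calls without the S/S library of more counted reads (70 with an unadjusted p under 0.05) and 0 without any other (114 to 134 genes with an unadjusted p under 0.05). In those fits the lone library of a genotype is assumed to vary like the others. The number of genes past 1.5-fold between the authors' means was 82, and became 65 with a pseudocount of 0.1, 12 on log2(CPM + 1) and 6 at a mean of at least 5 CPM. No paired analysis was possible because the recovered libraries carry no replicate number. For 5 of the 8 genes the spread between libraries is unknown, and the 6 rarer ones rest on 46 to 301 reads per genotype.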

Other observations

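The proportion of *Ttr* to genes of ventricle-lining epithelia was uneven between libraries. *Ttr* reads per read of *Foxj1*, a factor of ciliated ependymal cells, were 0.174 and 0.0764 in the S/S libraries and 0.632 and 0.357 in the G/G libraries. Per read of *Ecrg4* they were 1.06 and 0.414 against 3.90 and 1.89. By both proportions the G/G library with more counted reads stood highest and the S/S library with fewer lowest, which is also the order of *Ttr* itself. Which cells the *Ttr* reads came from was not tested.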
